A study of Mus musculus with 14 samples.

Results

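Purine receptors and ectonucleotidases sense and break down the nucleotides that cells release, and 9 mouse genes of this group were listed by name: the receptors P2rx4, P2rx7, P2ry2, P2ry6, P2ry14, Adora2a and Adora2b, and the enzymes Entpd1 and Nt5e. The array measured 7 of the 9, out of 18193 genes with a probe set assigned to a single gene. No probe set of the annotation used here was named for Adora2a or Adora2b alone, and both were not analysed here. Probe sets were chosen by measured values: each gene was read from the probe set with the highest mean over the 14 arrays, a choice that does not use the differences between treatments. All 7 measured genes were bright enough to be tested, among 12192 genes in all, although P2ry2 passed narrowly.

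Dendritic cells were grown from BALB/c mouse bone marrow in recombinant GM-CSF for 8 days, with feeding on days 3 and 6, and profiled on 14 Affymetrix arrays. All 7 groups received a pre-treatment of 1 h and comprised 2 arrays each, 1 from each of 2 independent experiments, named experiment 1 and experiment 2 below. With no stimulus, cells had received DMSO at 0.01% (the solvent control), the cathepsin L inhibitor CLIK148 at 5 µM, or the cathepsin B inhibitor CA074Me at 5 µM. With CpG, an oligonucleotide ligand of Toll-like receptor 9 given at 25 µg/mL and labelled as a pro-Th1 stimulus, cells had received DMSO or CLIK148. With TNF-alpha, a cytokine given at 500 U/mL and labelled as a pro-Th2 stimulus, cells had received DMSO or CA074Me. CLIK148 was therefore never combined with TNF, nor CA074Me with CpG. The labels state neither the interval between stimulus and harvest, nor the number of mice, nor any pooling of marrow. Nothing states that the experiments used different mice, so p-values measure the spread between these cultures.

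Values are log2 expression, so a difference of 1 is a doubling. A gene was called when its Benjamini-Hochberg adjusted p from limma was under 0.05 over the 12192 genes. Each difference is given ± SE from a fit of the 7 groups without the experiment. The adjusted p "with the block" is from a second fit that pairs arrays of the same experiment, and it is printed where it altered a call. Array medians lay between 7.48 and 7.54. Cultures carried dendritic cell genes on every array, with all 7 listed markers bright enough to test and their summed level between 15.73 and 16.13. All 7 measured granulocyte markers and all 6 measured macrophage markers were bright enough to test as well, with summed levels of 16.25 to 16.65 and 14.89 to 15.50; sums of different lists are not compared, since they depend on the probes and on the number of genes. In RNA of a whole culture, fewer cells of a type and less RNA per cell cannot be told apart. Lymphoid and plasmacytoid markers were near background, with 2 of 4 measured genes testable and a summed level of 9.47 to 9.59, and neither measured marker of the erythroid and stromal list was bright enough.

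Extracellular ATP and UTP are danger signals set free by stressed, dying or activated cells. ATP opens the P2X channels, and ATP, UTP and their breakdown products engage the G protein-coupled P2Y receptors, and in dendritic cells this is known to bear on migration, cytokine release and inflammasome activation. The enzyme encoded by Entpd1 (CD39) cuts ATP and ADP to AMP, and the enzyme encoded by Nt5e (CD73) cuts AMP to adenosine, which acts on a separate family of receptors that raise or lower cyclic AMP.

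Among the P2Y receptors, P2ry6, the receptor for UDP, had the widest gap between stimulated and unstimulated cells. Without stimulus its log2 level was 11.60 and 11.11 after DMSO, 11.46 and 11.00 after CLIK148, and 11.89 and 11.23 after CA074Me, experiment 1 before experiment 2. With CpG it was 10.17 and 10.56 after DMSO and 10.28 and 10.31 after CLIK148. With TNF it was 10.50 and 10.51 after DMSO and 10.39 and 10.06 after CA074Me. Every unstimulated array thus lay above every stimulated array, and in the order of group means the step from CLIK148 alone to TNF after DMSO, 0.73, was the single step between neighbours whose arrays did not overlap.

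**Figure D1:**
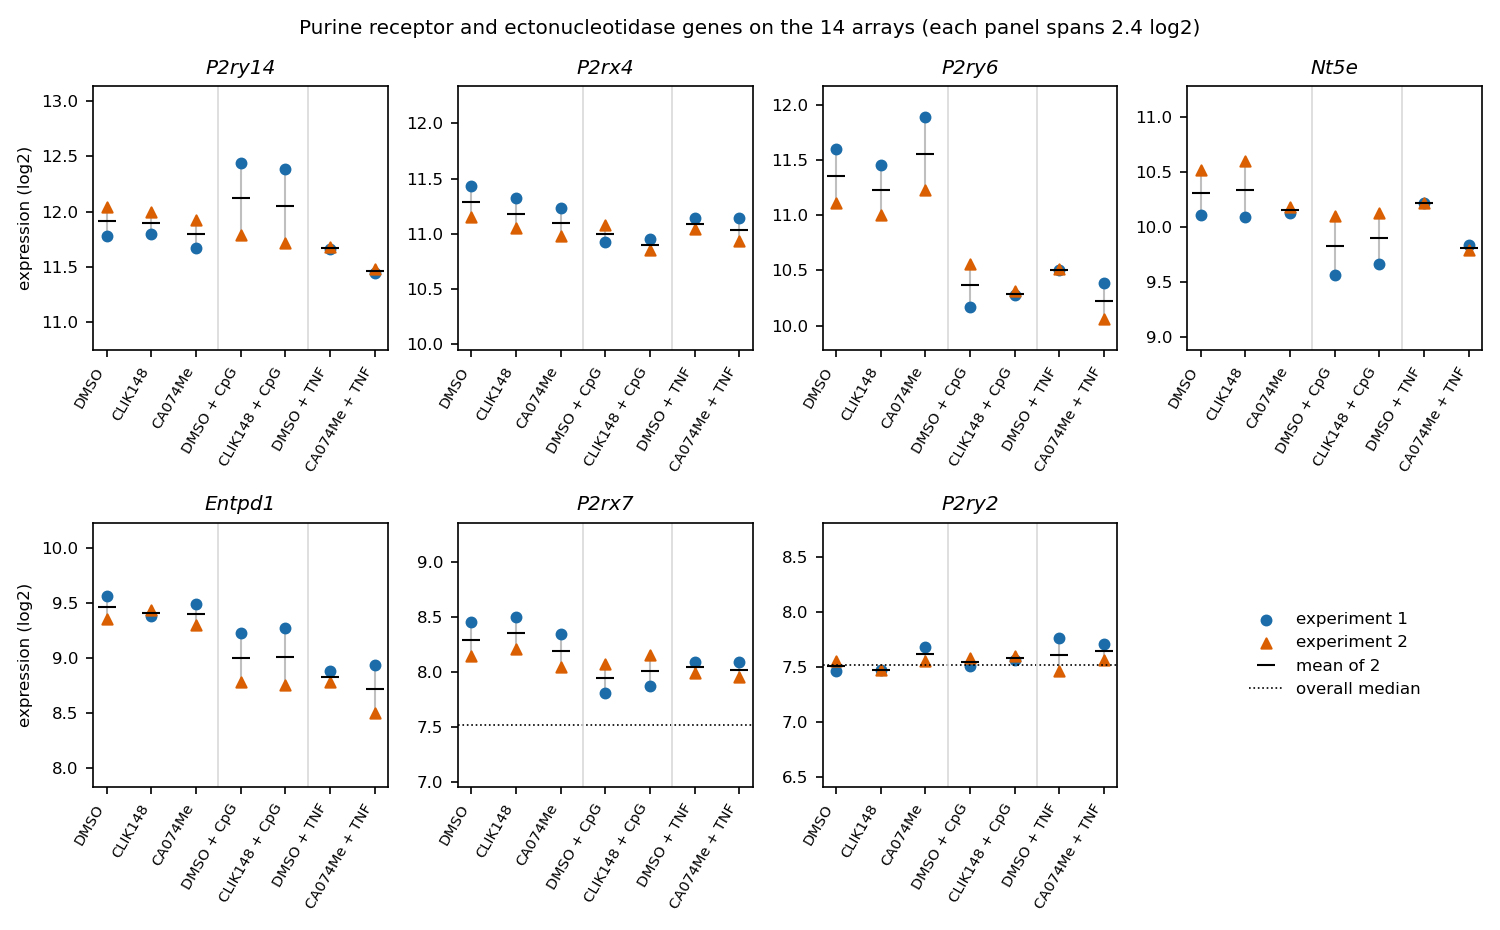
Log2 expression of the 7 measured genes (vertical axis) in the 7 treatment groups (horizontal axis). Each point is 1 array, marked by experiment. P2ry6 lies between 11.00 and 11.89 without stimulus and between 10.06 and 10.56 with CpG or TNF, while P2ry2 stays between 7.46 and 7.76.

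In CA074Me-treated cells, TNF was associated with a P2ry6 level lower by 2.53-fold, a log2 difference of -1.34 ± 0.26 (95% interval -1.92 to -0.75, limma adjusted p = 0.0474, and 0.00713 with the block). The differences were -1.5 in experiment 1 and -1.18 in experiment 2. P2ry6 was the 1 gene of 7 called in that comparison, against 1.3% of all genes. Without the block the call was narrow: leaving out any of the 4 arrays ended it, with differences of -1.67 to -1.01. Those fits do not pair the arrays, so the difference between experiments enters them, and leaving out an array was not tried with the block. It also ended without the filter on dim genes (0.0599), after cyclic loess (0.0504), with a mean of each gene's probe sets (0.0509) and with the arrays of the compared groups alone (0.175).

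In solvent-treated cells, P2ry6 with CpG differed from unstimulated cells by -0.99 ± 0.26, a 1.99-fold lower level, with an adjusted p of 0.0934 that became 0.0174 with the block. That gap was -1.43 in experiment 1 and -0.55 in experiment 2. Leaving out 1 array, in fits without the block, gave -1.19 without the CpG array of experiment 2 and -0.79 without that of experiment 1. Without a solvent array it gave -0.75 (experiment 1 left out) and -1.23 (experiment 2 left out). These fits do not pair the arrays either. With TNF the difference was -0.85 ± 0.26 (limma adjusted p = 0.418, and 0.075 with the block), or -1.1 and -0.61 by experiment. After CLIK148, CpG gave -0.94 ± 0.26 (adjusted p = 0.128, and 0.0241 with the block). The TNF difference after CA074Me minus that after DMSO was -0.49 (95% interval -1.31 to 0.34), and this interaction was not called (limma adjusted p = 1.0).

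P2ry14, the receptor for UDP-glucose and other UDP-sugars, split by experiment. After DMSO it measured 11.78 and 12.04 without stimulus, 12.44 and 11.79 with CpG, and 11.66 and 11.68 with TNF. CLIK148 alone gave 11.80 and 12, CLIK148 with CpG 12.39 and 11.71, CA074Me alone 11.67 and 11.92, and CA074Me with TNF 11.44 and 11.48. CpG arrays were thus the highest of experiment 1 and, among unstimulated and CpG arrays, the lowest of experiment 2.

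The CpG difference for P2ry14 was 0.66 in experiment 1 and -0.25 in experiment 2 after DMSO, and 0.59 and -0.29 after CLIK148. The mean of 0.20 ± 0.25 (95% interval -0.36 to 0.77, adjusted p = 0.699) therefore averages values of opposite sign. With TNF both experiments were below their own unstimulated array, by -0.12 and -0.36 after DMSO and by -0.22 and -0.44 after CA074Me, and no call was made (adjusted p = 0.866 and 0.689). Of 4 start sites of P2ry14 in RefSeq (GRCm38.p6), the one numbered 4 held a match to the NF-kB letters searched, shown here because it is the sole such match at this gene. The capitals mark it, 103 to 94 bases before the start, in chr3:59130763-59131012 on the minus strand.
P2ry14, start 4: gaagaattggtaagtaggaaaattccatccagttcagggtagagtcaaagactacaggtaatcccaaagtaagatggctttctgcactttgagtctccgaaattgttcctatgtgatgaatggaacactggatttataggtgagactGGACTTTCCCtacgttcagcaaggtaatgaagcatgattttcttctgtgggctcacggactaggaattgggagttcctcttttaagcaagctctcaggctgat
The reference is of strain C57BL/6J, whereas the cells were BALB/c, and no data on binding were at hand.

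P2ry2, the receptor for ATP and UTP, differed little between arrays. It measured 7.46 and 7.55 in unstimulated solvent cells, 7.51 and 7.58 with CpG, and 7.76 and 7.46 with TNF. Only 9 of 14 arrays exceeded the overall array median of 7.52, so this level is close to the dim end of what the filter admits. Its stimulus differences were 0.04 with CpG and 0.10 with TNF after DMSO, 0.11 with CpG after CLIK148 and 0.02 with TNF after CA074Me. Limma called none of them with or without the block. In the GRCm38.p6 RefSeq gene order, P2ry2 and P2ry6 are adjacent protein-coding genes on chromosome 7, yet their levels over the 14 arrays had r = -0.15 (rho = -0.27).

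For the P2X channels P2rx4 and P2rx7 no stimulus comparison was called with either fit, and the differences were nearer to 0 than those of P2ry6. P2rx7 encodes the ATP-gated channel best known for triggering NLRP3 inflammasome activity, and P2rx4 a channel that responds to lower ATP concentrations. P2rx7 measured 8.45 and 8.14 in unstimulated solvent cells, 7.81 and 8.07 with CpG, and 8.09 and 7.99 with TNF. P2rx4 measured 11.43 and 11.15, then 10.92 and 11.08 with CpG, and 11.14 and 11.04 with TNF. In both genes each stimulated solvent array was below both unstimulated solvent arrays.

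With CpG the difference was -0.35 ± 0.17 for P2rx7 (limma adjusted p = 0.304) and -0.30 ± 0.14 for P2rx4 (adjusted p = 0.307), and neither was called with the block (0.135 and 0.0721). Experiment 1 carried most of both: -0.64 against -0.07 in experiment 2 for P2rx7, and -0.52 against -0.08 for P2rx4. With TNF the differences were -0.25 ± 0.17 and -0.20 ± 0.14 (adjusted p = 0.815 and 0.826). After CLIK148 the CpG differences were -0.34 ± 0.17 and -0.28 ± 0.14. After CA074Me the TNF differences were -0.17 ± 0.17 and -0.07 ± 0.14, and the arrays of the groups overlapped for both genes.

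P2rx7 and P2rx4 are also neighbours, next to each other among protein-coding genes on chromosome 5 of GRCm38.p6, and their levels over the 14 arrays had r = 0.82 (rho = 0.73). P2ry6, on chromosome 7, was about as alike, with r = 0.82 (rho = 0.75) to P2rx7 and r = 0.76 (rho = 0.79) to P2rx4. Such likeness was thus not particular to neighbours, and its cause was not tested. The 250 bases before the RefSeq starts of P2rx7 and P2rx4 are shown as a description of this pair. They span chr5:122643677-122643926 for the first of 2 P2rx7 starts and chr5:122707294-122707543 for P2rx4, both on the plus strand.
P2rx7, first start: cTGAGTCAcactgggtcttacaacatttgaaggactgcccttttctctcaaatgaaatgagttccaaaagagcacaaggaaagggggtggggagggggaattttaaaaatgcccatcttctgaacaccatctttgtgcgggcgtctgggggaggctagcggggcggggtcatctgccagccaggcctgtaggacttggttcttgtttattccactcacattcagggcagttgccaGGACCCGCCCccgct
P2rx4: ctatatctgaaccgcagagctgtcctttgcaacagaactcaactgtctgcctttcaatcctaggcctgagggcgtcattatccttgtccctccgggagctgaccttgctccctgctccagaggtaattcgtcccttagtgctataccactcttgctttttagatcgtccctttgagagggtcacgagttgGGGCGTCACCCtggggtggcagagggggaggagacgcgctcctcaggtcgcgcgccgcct
Capitals mark, in P2rx7, an AP-1 match 249 to 243 bases before the start and an NF-kB match 15 to 6 bases before it. In P2rx4 they mark a pair of overlapping NF-kB matches on opposite strands, 60 to 50 bases before the start. The letters searched on both strands were GGG and CC separated by any 5 bases for NF-kB, GAAA and GAAA separated by any 2 bases for the interferon response, TGACGTCA for the cAMP response and TGANTCA for AP-1. Of 32851 promoter windows of this length, 45.8%, 2.98%, 1.55% and 6.75% held them, so an NF-kB match of this loose form is common. The window before the other P2rx7 start, not shown, held no match to any of these letters. A match is a description of letters and not a site.

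Of the ectonucleotidases, Entpd1 had its stimulated and unstimulated arrays fully apart. Entpd1 measured 9.56 and 9.35 in unstimulated solvent cells, 9.23 and 8.78 with CpG, and 8.88 and 8.78 with TNF. The CLIK148 arrays were 9.38 and 9.44 alone and 9.27 and 8.75 with CpG, and the CA074Me arrays 9.49 and 9.30 alone and 8.94 and 8.50 with TNF. All 8 stimulated arrays lay below all 6 unstimulated arrays.

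For Entpd1 the TNF difference was -0.63 ± 0.21 after DMSO, a 1.55-fold lower level (limma adjusted p = 0.483, and 0.0421 with the block), and -0.68 ± 0.21 after CA074Me (0.214, and 0.0144 with the block). The CpG difference was -0.45 ± 0.21 after DMSO (0.306, and 0.0437 with the block) and -0.40 ± 0.21 after CLIK148 (0.372, and 0.0648 with the block). By experiment the TNF differences were -0.68 and -0.57 after DMSO and -0.55 and -0.80 after CA074Me. The CpG differences were -0.33 and -0.57 after DMSO and -0.12 and -0.69 after CLIK148, so in the chosen probe set they varied more. In another probe set they did not: solvent cells there measured 9.04 and 9.04 without stimulus, 8.41 and 8.37 with CpG, and 8.31 and 8.49 with TNF. Without the CpG array of experiment 1 or of experiment 2, fits without the block gave CpG differences of -0.68 or -0.22 after DMSO, and -0.66 or -0.14 after CLIK148. Such fits do not pair the arrays, so the difference between experiments enters these values. The mean over its probe sets was called for TNF after CA074Me without the block (-0.75, adjusted p = 0.0424). Of the 4 motifs, none was found in the 250 bases before the first of 2 Entpd1 starts in RefSeq (chr19:40612116-40612365, plus strand, GRCm38.p6), shown as a contrast to the P2X promoters.
Entpd1, first start: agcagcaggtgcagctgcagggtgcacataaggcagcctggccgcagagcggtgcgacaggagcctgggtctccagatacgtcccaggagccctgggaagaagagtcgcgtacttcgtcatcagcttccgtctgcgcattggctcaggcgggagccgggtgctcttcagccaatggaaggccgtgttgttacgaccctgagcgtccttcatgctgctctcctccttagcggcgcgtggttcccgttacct
No match says only that these letters are not in this window.

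Nt5e measured 10.11 and 10.52 in unstimulated solvent cells, 9.56 and 10.10 with CpG, and 10.22 and 10.22 with TNF. The CpG difference was -0.48 ± 0.24 (limma adjusted p = 0.321, and 0.0617 with the block), at -0.55 and -0.42 by experiment. TNF gave -0.09 ± 0.24 after DMSO, with 0.11 in experiment 1 and -0.30 in experiment 2. After CA074Me the TNF difference was -0.34 ± 0.24 (limma adjusted p = 0.662, and 0.215 with the block), with -0.29 and -0.39 by experiment and no overlap of arrays. CpG and TNF cells differed by -0.39 (limma adjusted p = 0.894, and 0.291 with the block), so the stimuli were not shown to differ for this gene. After CLIK148, Nt5e was 10.09 and 10.60 without stimulus and 9.66 and 10.13 with CpG, a difference of -0.45 ± 0.24, with -0.43 and -0.47 by experiment. In the chosen probe sets, the CpG differences of Nt5e thus varied less between experiments than those of Entpd1. This ranking depends on the probe set. Another Entpd1 probe set measured 9.04 and 9.04 in unstimulated solvent cells and 8.41 and 8.37 with CpG.

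**Figure D2:**
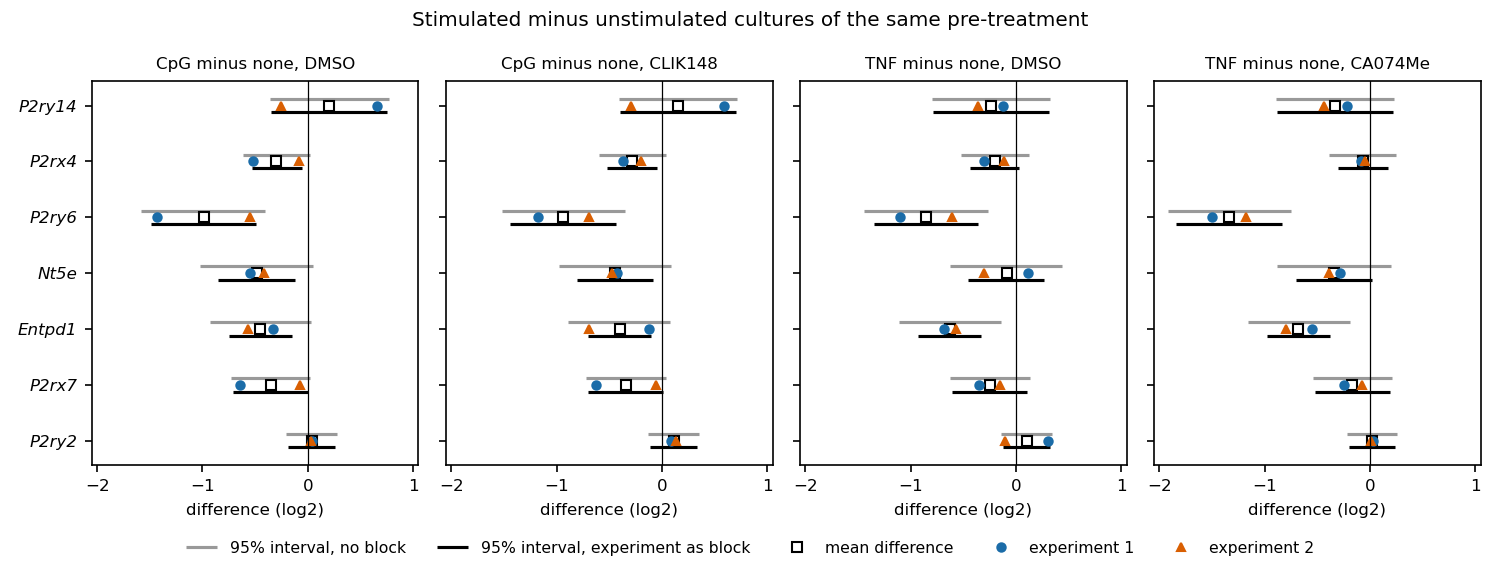
Stimulated minus unstimulated log2 expression (horizontal axis) of the 7 genes for the 4 stimulus comparisons. Squares are means, coloured points the experiments, and bars 95% intervals without and with the experiment as block. P2ry6 reaches -1.34 with TNF after CA074Me, and P2ry14 with CpG has 0.66 in experiment 1 and -0.25 in experiment 2.

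Counted together, limma called 0 of the 7 genes with CpG after DMSO, where it called 1.92% of all genes in either direction. With the block it called 2 (P2ry6 and Entpd1, both lower), against 19.8% of genes. Without the block 1 of the 7 had an unadjusted p under 0.05, as had 18.2% of all genes, and with it 4 had one, as had 37.3%. With TNF after DMSO, 0 of 7 were called against 0.115% of genes, with 2 at an unadjusted p under 0.05 (7.21% of genes), and 1 (Entpd1, lower) was called with the block against 3.11%. With CpG after CLIK148, 0 of 7 were called against 0.812%, with 1 at an unadjusted p under 0.05 (16.6% of genes), and 1 (P2ry6, lower) was called with the block against 17.0%. With TNF after CA074Me, 1 of 7 was called against 1.3%, and the block made it 2 (P2ry6 and Entpd1, both lower) against 11.1%. CpG against TNF after DMSO gave 0 of 7 with either fit, against 0.0082% of genes, or 0.435% with the block. Nt5e alone had an unadjusted p under 0.05 there, with the block (15.7% of genes). CpG minus TNF was 0.44 ± 0.25 for P2ry14, at 0.78 and 0.11 by experiment (limma adjusted p = 0.874). It was -0.39 ± 0.24 for Nt5e, at -0.66 and -0.12 by experiment. For P2ry14 and Nt5e the arrays did not overlap, and the share of all genes so placed is not given here. The difference was 0.18 for Entpd1, -0.06 for P2ry2, -0.09 for P2rx4, -0.10 for P2rx7 and -0.14 for P2ry6, and their arrays overlapped. The members' share with the block in the CpG comparisons is thus near that of all genes.

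Solvent-treated arrays did not overlap for 5 of the 7 genes, lower with CpG, where 26.4% of genes were so placed, and for 5 lower with TNF, where 26.2% were. The corresponding counts were 4 with CpG after CLIK148 (32.4%) and 4 with TNF after CA074Me (25.7%). P2rx4, P2rx7, P2ry6 and Entpd1 were lower in all 8 pairs of a stimulated and its matched unstimulated array, as were 25.6% of genes. Nt5e was lower in 7 pairs, P2ry14 in 6 and P2ry2 in 1. The median difference of the 7 genes was -0.35 with CpG and -0.24 with TNF after DMSO, beside -0.055 and -0.051 over all genes. These comparisons share the solvent arrays.

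Some macrophage markers moved with these lower levels, and others did not. The summed level of the 6 tested markers was 15.30 to 15.50 on the 6 unstimulated arrays and 14.89 to 15.24 on the 8 stimulated ones. With CpG after DMSO, 4 of the 6 tested markers were below 0. With the block 3 were called lower, where 19.8% of all genes were called: C1qa, a complement component (-1.51), Csf1r, the receptor for macrophage colony-stimulating factor (-0.40), and Cd68, a lysosomal glycoprotein (-0.32). C1qa measured 12.21 and 11.96 without stimulus and 9.89 and 11.26 with CpG. Csf1r measured 14.75 and 14.48, then 14.32 and 14.10 with CpG, and Cd68 12.40 and 11.71, then 11.90 and 11.58. Adgre1 gave -0.10, while Fcgr1, an Fc receptor, gave 0.57 (1.54 in experiment 1 and -0.40 in experiment 2) and Mertk 0.19 (0.43 and -0.05). With TNF after DMSO all 6 were below 0, with a median of -0.33, and none was called, with or without the block. Granulocyte markers summed to 16.25 to 16.48 without stimulus and 16.27 to 16.65 with one, and mast cell and basophil markers to 12.25 to 12.73 and 12.52 to 12.69. The part of these markers in the lower P2ry6, Entpd1 and P2X levels was not tested.

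The inhibitors on their own, each at 5 µM, were next compared with the solvent control. With CLIK148 alone, differences ran from -0.12 for P2ry6 and -0.11 for P2rx4, through -0.04 for Entpd1 and P2ry2, -0.01 for P2ry14 and 0.03 for Nt5e, to 0.06 for P2rx7. With CA074Me alone they ran from -0.19 for P2rx4, -0.16 for Nt5e, -0.12 for P2ry14, -0.10 for P2rx7 and -0.06 for Entpd1 to 0.11 for P2ry2 and 0.20 for P2ry6. All these arrays overlapped with those of the solvent. CLIK148 minus CA074Me ran from -0.33 for P2ry6 (95% interval -0.91 to 0.26) to 0.19 for Nt5e (-0.35 to 0.73). Between these lay P2ry2 (-0.15), Entpd1 (0.01), P2rx4 (0.08), P2ry14 (0.11) and P2rx7 (0.16). Only for P2ry2, whose levels lie near the overall median of 7.52, did the arrays not overlap. The share of all genes so placed is not given here. In these 3 comparisons limma called 0 of 7 genes and 0.0% of all genes, with or without the block, and none of the 7 had an unadjusted p under 0.05. The 95% intervals of a difference between 2 groups reached 0.58 to either side for P2ry6, 0.56 for P2ry14, 0.54 for Nt5e, 0.48 for Entpd1, 0.38 for P2rx7, 0.32 for P2rx4 and 0.24 for P2ry2, so differences of that size are not excluded.

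Under stimulation, CLIK148 with CpG differed from DMSO with CpG by -0.09 for P2rx4, -0.07 for P2ry6, -0.06 for P2ry14, 0.00 for Entpd1, 0.04 for P2ry2 and 0.07 for P2rx7 and Nt5e, and limma called 0 of 7 genes with either fit (0.0% of all genes), with none at an unadjusted p under 0.05. CA074Me with TNF differed from DMSO with TNF by -0.40 for Nt5e, -0.28 for P2ry6, -0.21 for P2ry14, -0.11 for Entpd1, -0.06 for P2rx4, -0.02 for P2rx7 and 0.03 for P2ry2, again with 0 of 7 called by limma (0.0% of genes, and 0.0082% with the block). Nt5e measured 9.84 and 9.79 with CA074Me and TNF against 10.22 and 10.22 with DMSO and TNF. This difference of -0.40 ± 0.24 had an adjusted p of 1.0, with an unadjusted p of 0.122 that became 0.0325 with the block. P2ry6 (-0.28) and P2ry14 (-0.21) also had no overlap between those arrays, giving 3 of 7 genes lower without overlap against 7.72% of all genes. CA074Me alone, without TNF, gave Nt5e at 10.13 and 10.18, and the interaction for Nt5e was -0.25 (95% interval -1.0 to 0.51). That of CA074Me and TNF was -0.09 for P2ry14, -0.08 for P2ry2, -0.05 for Entpd1, 0.09 for P2rx7 and 0.14 for P2rx4. That of CLIK148 and CpG was -0.05 for P2ry14, 0.01 for P2rx4 and P2rx7, 0.04 for Nt5e, 0.05 for P2ry6 and Entpd1, and 0.08 for P2ry2. Limma called 0 of 7 in both, with or without the block, with none at an unadjusted p under 0.05.

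**Figure D3:**
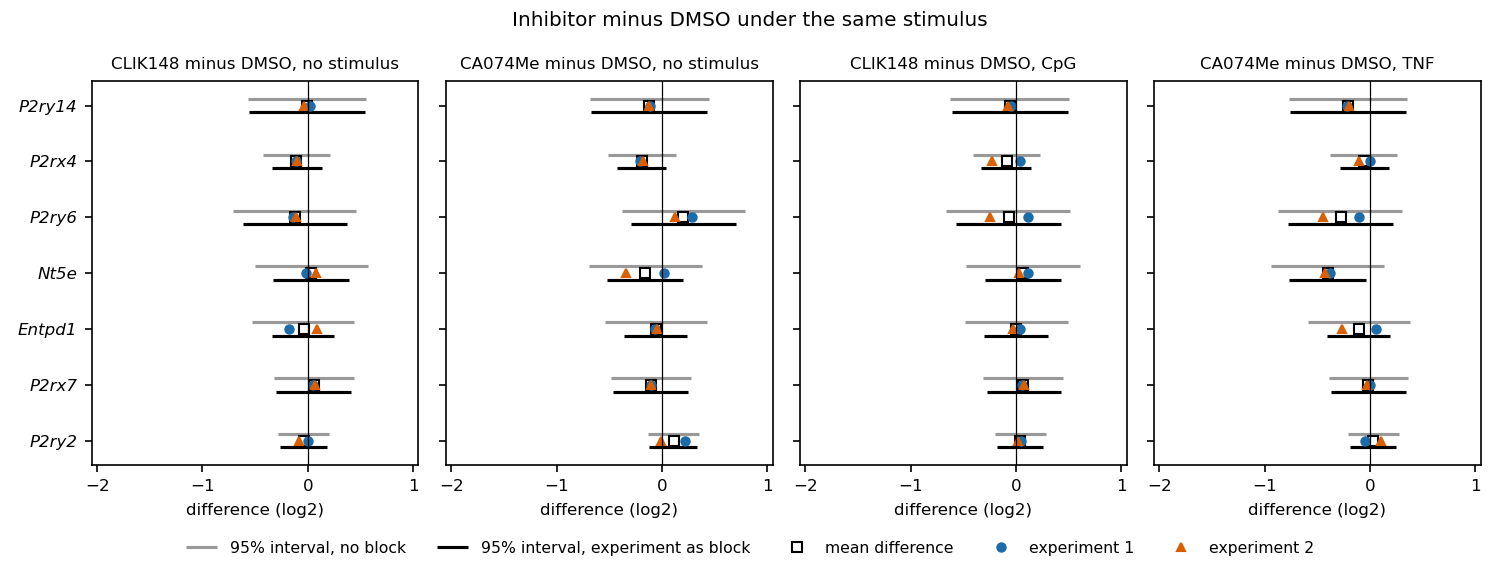
Inhibitor minus DMSO log2 expression under the same stimulus (horizontal axis) for the 7 genes in 4 comparisons. Squares are means, coloured points the experiments, and bars 95% intervals without and with the block. Among these chosen probe sets, Nt5e under TNF lies farthest from 0, at -0.40, and all intervals without the block cross 0.

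Several genes were read by more than 1 probe set, 16 in all. The 3 Entpd1 probe sets gave CpG differences of -0.45, -0.65 and -0.38 and TNF differences of -0.63, -0.64 and -0.55, so all were lower. For Nt5e the chosen probe set gave -0.48 with CpG after DMSO while the next brightest gave -0.11, and the dimmest did not exceed the overall median on any array. With CpG after CLIK148 the chosen one gave -0.45 and the next brightest 0.01. For CA074Me minus DMSO under TNF they gave -0.40 and -0.165, and the 3 Entpd1 probe sets gave -0.11, -0.41 and -0.17. Which gene lay farthest from 0 there thus depends on the probe set. The second probe sets of P2rx4 and P2rx7 were also lower with CpG, at -0.23 and -0.21. That of P2rx7 was itself dim, above the overall median on 9 of 14 arrays, and the dimmer ones of both genes lay near that median. P2ry2, P2ry6 and P2ry14 had a single probe set each.

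**Figure D4:**
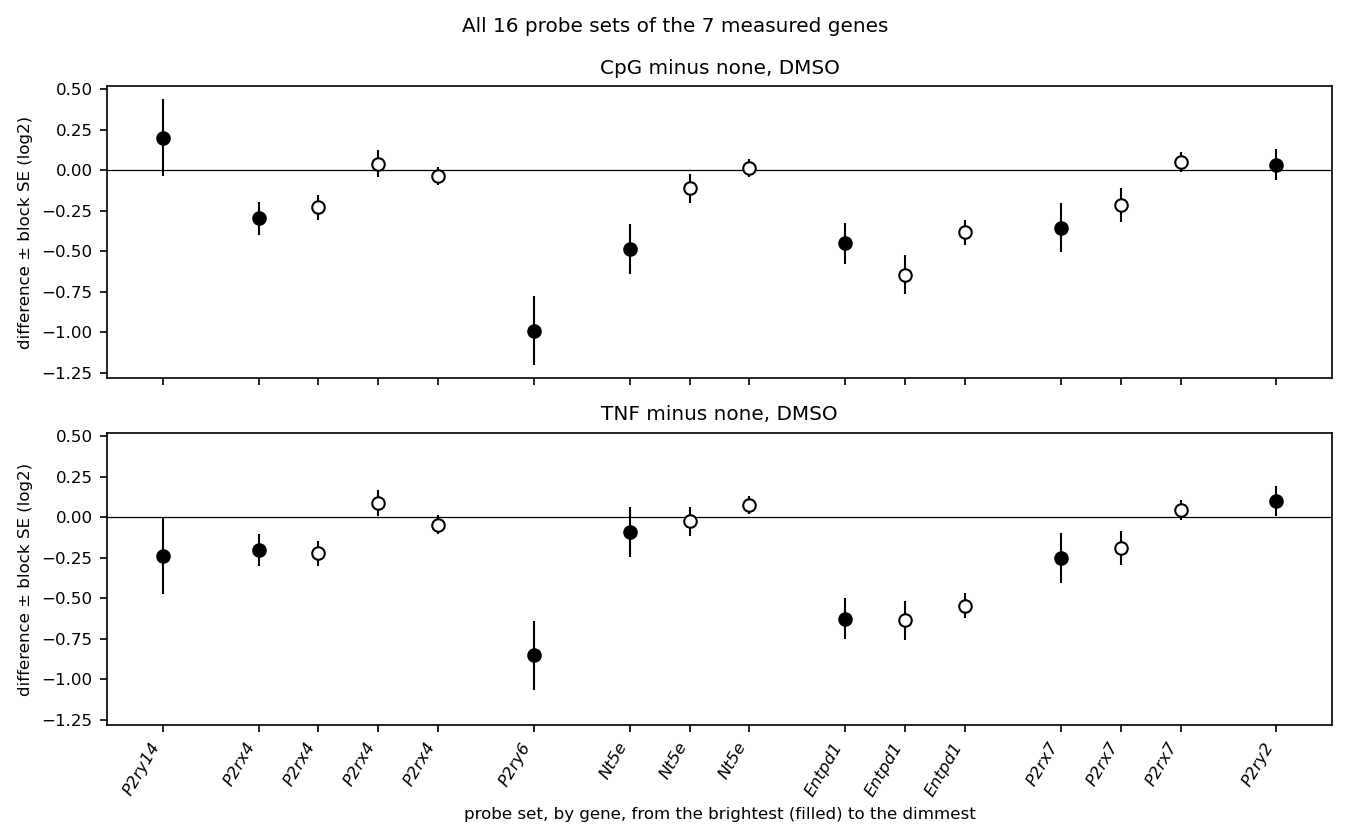
Log2 difference with CpG (upper panel) and TNF (lower panel) after DMSO for all 16 probe sets of the 7 genes, ordered by gene and, within a gene, by brightness. Filled points are the chosen probe sets and bars the SE with the experiment as block. All 3 Entpd1 probe sets lie below 0 in both panels, and the Nt5e probe sets spread from -0.48 to near 0 with CpG.

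The genes whose levels over the 14 arrays were most like those of each member, by Pearson's r among all tested genes, were picked as descriptions with no test, since arrays share their experiment and normalisation. P2ry6 was most like Acaa2, a mitochondrial thiolase (r = 0.976, rho = 0.938), and Cd209a, a C-type lectin of dendritic cells (r = 0.972, rho = 0.956). P2rx7 was most like Ltb4r1, the leukotriene B4 receptor (r = 0.969, rho = 0.974), and P2rx4 like Dock1 (r = 0.970, rho = 0.960). Entpd1 was most like Rhoh (r = 0.959), P2ry14 like Oas1c (r = 0.968), Nt5e like C730049O14Rik (r = 0.932) and P2ry2 like Cdc42ep3 (r = 0.822). Among the members, P2ry6 with P2rx7 (r = 0.82), with Entpd1 (r = 0.77) and with P2rx4 (r = 0.76) were the most alike beside the P2X pair.

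Other genes of purine signalling were read from 6 lists, and most listed genes were not called. Among 8 tested other purine receptors, Adora3, the A3 adenosine receptor, was lower with CpG after DMSO (-0.96 ± 0.19, limma adjusted p = 0.045) and with TNF after CA074Me (-1.01 ± 0.19, adjusted p = 0.0448). It measured 8.06 and 8.34 in unstimulated solvent cells, 7.15 and 7.34 with CpG, and 7.31 and 7.61 with TNF. All 6 unstimulated arrays lay above all 8 stimulated ones. Of these 8, all but 1 (7.61) lie below the overall median of 7.52, so the size of these differences is set against dim readings. Adora3 thus passed the filter on dim genes through its unstimulated arrays, and its calls as lower are given as a description. With TNF after DMSO (-0.74) and CpG after CLIK148 (-0.84), Adora3 was called with the block alone (0.0145 and 0.00393). P2rx1, an ATP-gated channel, was higher with CpG after DMSO with the block (0.49, adjusted p = 0.0322, and 0.501 without it). P2ry12, an ADP receptor, was lower with TNF after CA074Me with the block (-0.42, 0.0442, and 0.519 without it). Its levels there, 7.68 and 7.41 without TNF and 7.28 and 6.97 with it, are at the dim end of the array, so the size of this difference is uncertain. Without the block 1 of the 8 was called with CpG after DMSO (1.92% of all genes) and 1 with TNF after CA074Me (1.3%). With the block 1 was called higher and 1 lower with CpG after DMSO, near the 19.8% of all genes. It called 2 lower with TNF after CA074Me (11.1%), 1 with TNF after DMSO (3.11%) and 1 with CpG after CLIK148 (17.0%).

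Of 6 tested genes of adenosine uptake and breakdown, 0 were called without the block and 4 were lower with CpG after DMSO with it: Adk, adenosine kinase (-0.52), Slc29a3 (-0.51) and Slc29a1 (-0.31), which are nucleoside transporters, and Ada, adenosine deaminase (-0.22). In that fit 19.8% of all genes were called. Adk was also lower with the block with TNF after DMSO (-0.34, limma adjusted p = 0.0403), where 3.11% of all genes were called. The list's median was -0.27 with CpG and -0.18 with TNF, beside -0.055 and -0.051 over all genes. Of 5 tested genes of ATP and UDP-sugar release, Slc35d2, a nucleotide-sugar transporter, was lower with CpG with the block (-0.52, adjusted p = 0.0141). None of 4 tested other surface enzymes was called in a stimulus comparison with either fit, and their medians were 0.15 with CpG and 0.14 with TNF.

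Of 7 genes of the P2X7-linked inflammasome and IL-1 list, Il1b, the interleukin-1 beta gene, was higher with CpG with the block (1.13 ± 0.31, adjusted p = 0.0197, and 0.109 without it). Its levels were 13.25 and 13.54 in unstimulated solvent cells and 14.72 and 14.34 with CpG. Pycard, the inflammasome adaptor ASC, was called lower with TNF after CA074Me (-0.56 ± 0.11, limma adjusted p = 0.0437), where 1.3% of all genes were called. Of 10 cAMP genes, 0 were called with CpG after DMSO without the block and 4 were called lower with it, against 19.8% of all genes called. Of these Adcy7, an adenylyl cyclase, was farthest from 0 (-1.03, adjusted p = 0.00242), then Crem (-0.86), Adcy9 (-0.52) and Pde4d (-0.49). Adcy7 was called lower with the block in the other 3 stimulus comparisons as well, by -0.63 with TNF after DMSO. In the inhibitor comparisons and both interactions 0 listed genes were called. Median differences with CpG and TNF were 0.13 and -0.02 for other purine receptors, 0.18 and -0.09 for the inflammasome list, and -0.26 and -0.06 for the cAMP list.

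**Figure D5:**
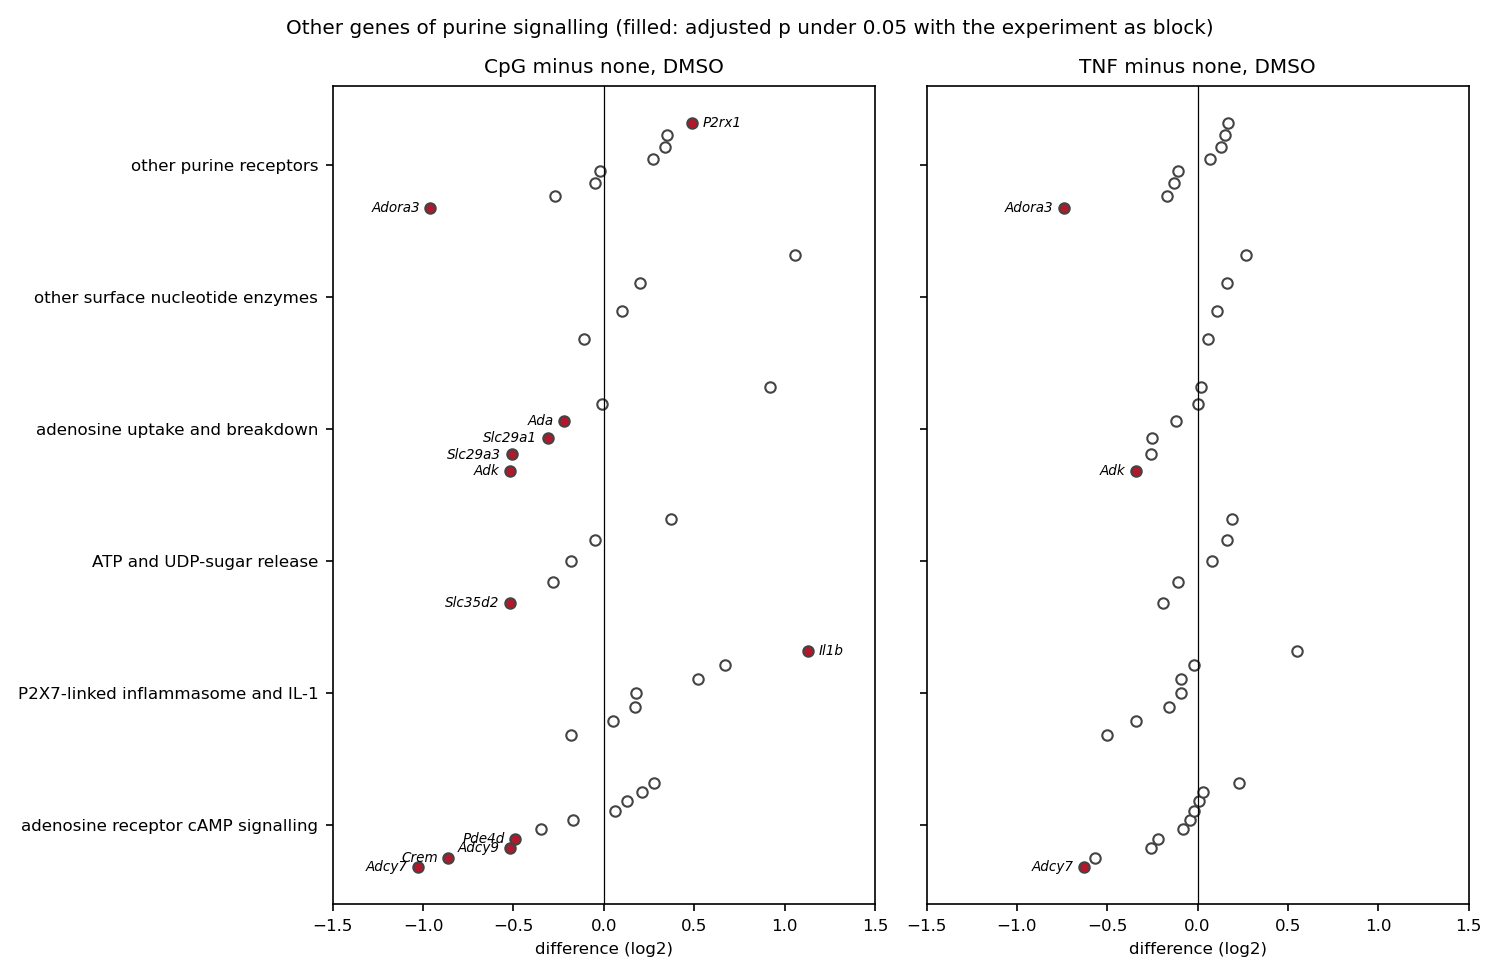
Log2 difference with CpG (left) and TNF (right) after DMSO for the tested genes of 6 purine signalling lists, 1 point per gene. Filled, named genes had an adjusted p under 0.05 with the experiment as block. Adora3, Adk and Adcy7 are filled in both panels, and Il1b at 1.13 lies farthest to the right with CpG.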

How the data were processed

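RMA made the deposited log2 values, and the authors ran it in R 3.0.1, per the submitters' processing notes. RMA corrects background, gives arrays a common distribution and merges the probes of each set, so a shift shared by most genes is removed. The notes give no settings. The annotation of the array gave 34945 of 45101 probe sets a single gene, 932 several and 9160 none, beside 64 control probe sets. Genes whose brightest single-gene probe set exceeded the overall median of 7.52 on 2 or more arrays were tested.

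The 12 comparisons came from limma 3.58.1 (R 4.3.3, 2-sided tests, 95% intervals), with 7 residual degrees of freedom, or 6 once the experiment was a block. The design text describes independent experiments, and replicate differences correlated across all 21 pairs of groups (r from 0.455 to 0.935), so the numbers pair the arrays. Only the fit with the block was tested on simulated data, with 200 changed genes and no difference between experiments. The fit without the block was not tested in this way. With 2 arrays per group, their number limits the precision.

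Every member was named in every comparison, and from each pathway list up to 3 called genes with the largest differences, with a few further called genes named after their values were seen. The members and lists were chosen with earlier results of these data known, so they give no independent support to a pattern already seen. A marker list's summed level is the log2 of its summed linear values. The other probe sets of a gene were tested in a fit over all probe sets. Alternatives were the block, no filter, a mean of probe sets, cyclic loess, array weights, the compared arrays alone, and leaving out each array. Each alternative other than the block was fitted without it. Of the 9 genes, 7 had promoter sequences in the RefSeq table (GRCm38.p6). The letters of 4 motifs were searched in the 250 bases before each start.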

Additional observations from a re-analysis of the deposited data

How the results depend on the processing

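Of 896 values of the 7 genes recomputed under the alternatives, 881 kept their side of the threshold, 7 passed it newly and 8 lost it, and the 96 changes of sign were among values not called. With the replicate block, the members called were 2 with CpG after DMSO, 1 with TNF after DMSO, 1 with CpG after CLIK148 and 2 with TNF after CA074Me, and the block changed no other call among them. The last comparison had 1 member called without the block and 0 without the filter on dim genes, after cyclic loess and with the compared arrays alone. Leaving out 1 array gave 0 to 1 members with CpG after DMSO and 0 to 0 with TNF after CA074Me.

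Counts over all genes moved more. With CpG after DMSO 234 genes were called, 2420 with the block, 48 with array weights and 0 with the compared arrays alone. Leaving out 1 of its 4 arrays gave 1 to 1611 genes, the lowest without the solvent array of experiment 1 and the highest without the CpG array of experiment 2. In the same way TNF after DMSO gave 0 to 5 genes, CpG after CLIK148 1 to 44, TNF after CA074Me 5 to 59 and CpG against TNF 0 to 1. With TNF after DMSO 14 were called, 379 with the block, 22 after cyclic loess, 34 with array weights and 0 with the compared arrays alone. With CpG after CLIK148 99 were called, 2075 with the block, 171 after cyclic loess, 155 with weights and 0 with the compared arrays alone. With TNF after CA074Me 159 were called, 1354 with the block, 369 with weights and 0 with the compared arrays alone. CpG against TNF gave 1, 53 with the block, 2 with a mean of probe sets and 0 with the compared arrays alone, and CA074Me under TNF gave 0, or 1 with the block. Array weights were equal within each group, since 2 arrays mirror each other. The number of arrays limits the precision, and the values hold no measure of signal over background.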

Other observations

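Some genes of the purine lists had values that differed between the experiments, and none of those named here was called with CpG after DMSO, with or without the block. Enpp4, a surface nucleotide pyrophosphatase family member, measured 10.73 with CpG after DMSO and 10.57 with CpG after CLIK148 in experiment 1, and between 8.45 and 8.92 on the other arrays. Pnp, the purine nucleoside phosphorylase, measured 14.26 and 14.00 on the same arrays, and 12.56 to 13.02 on the others. P2ry13, an ADP receptor, measured 9.94 and 9.73 on them, against 8.12 to 9.21 elsewhere. P2ry14 was likewise highest on those arrays. Gja1, a gap junction gene, measured 7.02 to 7.91 in experiment 1 and 9.29 to 10.10 in experiment 2 under every treatment. These genes were picked after their values were seen.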
